A study of Mus musculus with 18 samples.

Results

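The genes described here make the hyaluronan-rich provisional matrix and the small leucine-rich proteoglycans of the heart: the hyaluronan synthases Has1 and Has2, the hyaluronan receptor Cd44, the hyaluronan-binding protein gene Tnfaip6, the large hyaluronan-binding proteoglycan versican (Vcan), and the small proteoglycans decorin (Dcn), biglycan (Bgn), lumican (Lum), fibromodulin (Fmod) and osteoglycin (Ogn). They were chosen by symbol, as named components of this part of the extracellular matrix, with earlier results of these data known. They are 10 of the 24419 gene symbols in the expression table. All 10 had an FPKM (fragments per unit of transcript length and of mapped fragments) of at least 1 in at least 1 mouse, as did 13333 symbols in all. RNA from the hearts of 18 male C57BL/6 mice, 8 weeks old, was sequenced after selection of polyadenylated RNA. In 5 groups of 3 mice, acute myocardial infarction (AMI) was induced by tying off the proximal left anterior descending coronary artery, and the infarcted myocardium was taken 10 min, 1 h, 6 h, 24 h or 72 h later. The sixth group was 3 control mice, which the study also calls sham and whose treatment beyond the shared pentobarbital anaesthesia is not described in the sources used here. No reperfusion and no genotype beyond the strain are described, each library is labelled as 1 replicate of its group, and no library is labelled with a batch.

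Hyaluronan is a long, unsulphated sugar chain that synthases in the plasma membrane extrude directly into the extracellular space. Injured tissue lays it down early, together with versican and the proteins that link and bind it, as a loose and hydrated matrix through which cells move. The small leucine-rich proteoglycans instead sit on collagen fibrils, where they set fibril diameter and spacing, and they belong to the resident fibroblast matrix as well as to the maturing scar.

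Levels are FPKM, which are per transcript length and can be compared between genes, and every change is a difference of group means of log2(FPKM + 1), written as a log2 fold change, tested with limma's two-sided moderated test and adjusted by Benjamini-Hochberg over all genes of the comparison. A gene was called higher or lower where the adjusted p was under 0.05. The scale understates changes of genes near 0 FPKM. An exact permutation test of 3 mice against 3 cannot go below p = 0.1. The comparisons with control share the same 3 control mice, so they are set side by side only. The summed FPKM ran from 542418 to 600467 per mouse. Read counts were not used, and relative depth, read from the steps of low values, ran from 0.813 to 1.32 of the first control mouse. The 72-h mice had the lowest sums (560482, 542418 and 554453) and relative depths of 1.3, 1.32 and 1.24. The second 24-h mouse also had a relative depth of 1.24, and before 72 h neither measure moved steadily with time.

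The tissue held heart markers in every mouse, but the levels of its cell type markers moved strongly with time. The summed FPKM of 6 cardiomyocyte genes was 34719 to 37143 in control and 14174 to 17131 at 72 h. The sum of 4 neutrophil genes (S100a8, S100a9, Csf3r and Cxcr2) was 2.32 to 4.92 in control, and that of 7 fibroblast genes was 118 to 148 in control and 3469 to 4646 at 72 h. The matrix genes of that list, Col1a1, Col1a2, Col3a1 and Postn, had means of 16.3, 32.4, 25.7 and 7.09 FPKM in control. At 72 h they had 949, 1045, 1211 and 663 FPKM. Its other genes, Pdgfra, Tcf21 and Ddr2, rose less, from 31.6, 3.99 and 14.2 FPKM in control to 76.9, 12.3 and 24.2 at 72 h. At 72 h all 6 cardiomyocyte genes were called lower, and 7 of 7 fibroblast, 4 of 4 neutrophil and 4 of 4 leukocyte genes higher. Of the endothelial genes 2 of 4 were lower, and of the mural genes 2 of 4 went in each direction. None of 3 T cell genes passed the filter. Over all genes tested, 53.1% were called higher at 72 h and 24.2% lower. In bulk tissue, more or fewer cells of a type and more or less RNA per cell cannot be told apart, for any gene below. Within the 6-h and 24-h groups 3 mice stood out. The first 6-h mouse was the highest of its group and the third 24-h mouse the highest of its group for all 5 hyaluronan-side genes (Has1, Has2, Cd44, Tnfaip6 and Vcan), while the third 24-h mouse was also the lowest of its group for 4 of the 5 small proteoglycan genes. The second 6-h mouse was the lowest of its group for all 5 hyaluronan-side genes and for 4 of the 5 small proteoglycan genes, and had the highest cardiomyocyte sum of its group (37207 against 30669 and 32959 FPKM). The neutrophil sum was 986, 114 and 370 in the 6-h mice and 207, 42.5 and 953 in the 24-h mice, in the order of replicates 1 to 3.

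The promoter of Tnfaip6, the member with the most motif matches, and those of Has1, Bgn and Ogn, which stand for the different time courses below, are shown for reference. They come from RefSeq (GRCm38.p6, the same coordinates as mm10), and 7 of the 10 members had an entry. Has2, Dcn and Lum had none. Each is written 5′ to 3′ on the strand of the gene and ends just before the annotated starts, and capitals mark matches, on either strand, to 5 motifs. These are the letters TATAAA of a TATA box, the letters TGANTCA that AP-1 binds, the CCAAT box, the letters TTCNNNGAA that STAT factors bind, and the NF-kappaB motif. The Has1 stretch is chr17:17855206-17855438 on the minus strand, the Tnfaip6 stretch chr2:52037863-52038008 on the plus strand, the Bgn stretch chrX:73483351-73483600 on the plus strand and the Ogn stretch chr13:49607765-49608014 on the plus strand.
Has1: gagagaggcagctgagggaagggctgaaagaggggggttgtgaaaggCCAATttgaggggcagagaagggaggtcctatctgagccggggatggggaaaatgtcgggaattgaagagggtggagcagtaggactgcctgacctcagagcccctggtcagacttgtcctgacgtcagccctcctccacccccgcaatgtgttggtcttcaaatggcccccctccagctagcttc
Tnfaip6: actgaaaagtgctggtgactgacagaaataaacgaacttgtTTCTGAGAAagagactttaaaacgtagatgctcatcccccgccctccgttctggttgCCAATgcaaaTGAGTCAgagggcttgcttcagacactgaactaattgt
Bgn: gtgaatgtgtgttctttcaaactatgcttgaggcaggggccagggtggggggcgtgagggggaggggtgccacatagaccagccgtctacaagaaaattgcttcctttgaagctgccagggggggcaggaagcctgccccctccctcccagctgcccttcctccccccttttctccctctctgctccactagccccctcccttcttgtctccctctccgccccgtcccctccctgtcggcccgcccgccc
Ogn: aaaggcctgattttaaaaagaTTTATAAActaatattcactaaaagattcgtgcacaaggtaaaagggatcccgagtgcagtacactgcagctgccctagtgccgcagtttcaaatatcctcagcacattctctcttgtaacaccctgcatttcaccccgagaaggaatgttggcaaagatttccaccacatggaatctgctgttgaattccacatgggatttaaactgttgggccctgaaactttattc
In the 250 bases before its RefSeq start, Tnfaip6 held the AP-1 letters TGAGTCA from 142 to 136 bases before the start, the STAT letters TTCTGAGAA from 209 to 201 bases before it, and 2 CCAAT boxes, of which one lies outside the stretch printed. Has1 and Vcan each held 1 CCAAT box and no other match. Ogn held TATAAA on both strands in overlapping letters, 229 to 222 bases before the start. Cd44, Bgn and Fmod held no match. Over all 32851 promoters of the same length in the table, 12.4% held TATAAA, 6.75% the AP-1 letters, 33.8% CCAAT, 7.02% the STAT letters and 3.9% the NF-kappaB motif. A match is a description and not a site.

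In mm10 (GENCODE M21) several of these genes lie side by side. Dcn (chr10:97479609-97518143) and Lum (chr10:97565128-97572703) are neighbours on the plus strand of chromosome 10, followed by Kera and Epyc. Ogn (chr13:49608046-49624501) closes a run of Ecm2, Aspn, Omd and Ogn on chromosome 13, and Fmod (chr1:134037254-134048277) lies beside Optc and Prelp on chromosome 1. Bgn lies at chrX:73483602-73495933, Vcan at chr13:89655312-89742509, Has2 at chr15:56665627-56694539, Has1 at chr17:17843323-17855205, Tnfaip6 at chr2:52038009-52056686 and Cd44 at chr2:102811141-102901665. Each value is for the whole gene, exons merged, and no isoform was read: Vcan and Cd44 have 8 coding transcripts each, with up to 15 and 19 exons. Ogn lies inside Cenpp on the opposite strand, and Has2 overlaps its antisense gene Has2os. The sources do not state strand-specific counting, so reads of these pairs cannot be told apart, and the highest level listed was 3.82 FPKM for Cenpp and 0.0362 FPKM for Has2os.

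In the first hour after ligation no member passed the test. At 10 min 0 of 10 members were called by limma, against a background of 0.248% of 13297 genes called higher and 0.0978% called lower, and 3 members (Cd44, Vcan and Lum) had an unadjusted p under 0.05. At 1 h again 0 of 10 were called, against 0.669% of 13300 genes higher and 0.0526% lower, and 2 (Tnfaip6 and Fmod) had an unadjusted p under 0.05. The median log2 fold change of the members was 0.08 at 10 min and 0.04 at 1 h, beside 0.02 and -0.02 over all genes. Tnfaip6 was 1.05, 0.731 and 1.184 FPKM at 1 h against 0.661, 0.355 and 0.597 in control, so that every 1-h mouse lay above every control mouse, but its log2 fold change of 0.37 ± 0.115 (SE) had a limma adjusted p of 0.275.

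From 6 h on the members divided, and at 72 h all of them were higher. At 6 h 4 of 10 were called higher (Has1, Cd44, Tnfaip6 and Vcan) and 2 lower (Lum and Ogn), against 11.6% of 13321 genes higher and 16.8% lower. At 24 h 6 were higher (Has2 and Bgn joined the 4) and 3 lower (Dcn, Fmod and Ogn), against 26.2% of 13327 genes higher and 11.4% lower. These 24-h counts depended on the controls: they were 2 higher and 2 lower without the first control mouse and 3 higher and 1 lower without the second or without the third. At 72 h 10 of 10 were higher and 0 lower, against 53.1% of 13329 genes higher and 24.2% lower, so that most genes tested were called higher as well. The members' median log2 fold change was 0.30 at 6 h, 0.89 at 24 h and 2.07 at 72 h, beside -0.08, 0.13 and 0.29 over all genes. Scaling that removed the shift of the median gene lowered the all-gene median at 72 h by 0.25 (median-of-ratios) or 0.39 (quantile) on the log2 scale and kept all 10 members called higher.

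**Figure D1:**
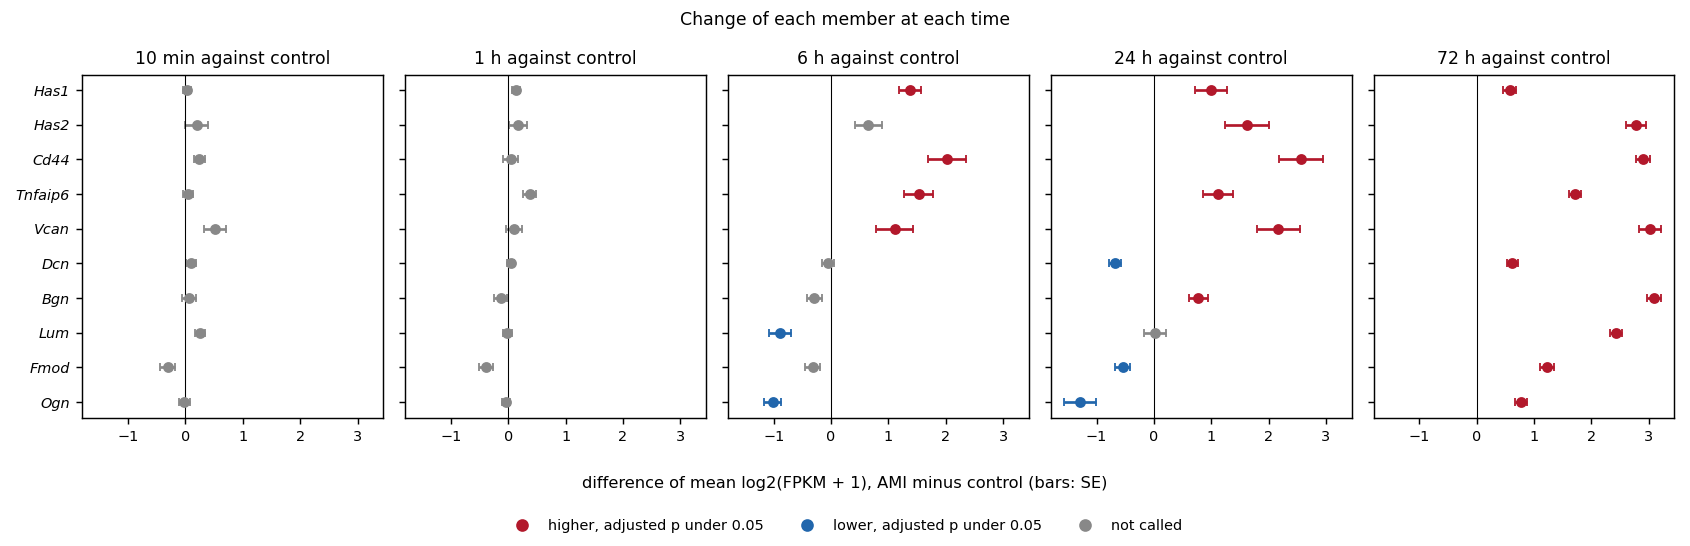
Each panel plots 1 time against control. The horizontal axis is the difference of mean log2(FPKM + 1), 3 AMI mice minus 3 control mice, bars are the SE, red and blue points passed the test and grey points did not. No member is coloured at 10 min or 1 h, 6 are at 6 h, 9 at 24 h and all 10 at 72 h.

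Has1, one of the 3 hyaluronan synthases of the mouse, was close to undetected in control, at 0.0444, 0.0607 and 0.0600 FPKM. It stood at 2.75, 1.07 and 1.64 FPKM at 6 h and at 0.868, 0.477 and 2.37 FPKM at 24 h. At 72 h it was 0.832, 0.431 and 0.491 FPKM. All mice from 6 h on lay above all control mice, and the highest group mean was that of 6 h. Against control its log2 fold change was 1.37 ± 0.198 (SE) at 6 h, 1.00 ± 0.281 at 24 h and 0.58 ± 0.112 at 72 h, with limma adjusted p of 0.00376, 0.0315 and 0.00136, and the ratio of the mean levels was 33.1, 22.5 and 10.6. The 24-h call was lost without any one of the 3 control mice (adjusted p from 0.0855 to 0.0943) and without the filter on low values (0.0547). From 1 h to 6 h Has1 rose by 1.24 (adjusted p = 0.00864), whereas the 6-h and 24-h mice and the 24-h and 72-h mice overlapped (adjusted p = 0.430 and 0.280). Within the 6-h and within the 24-h group the order of the mice by Has1 was the order by the neutrophil sum, as it was for Cd44 and Vcan. For Vcan at 24 h this rested on 14.70 against 14.62 FPKM in the first and second mouse. Has2 and Tnfaip6 kept the neutrophil order at 6 h but not at 24 h. This order was not particular to the neutrophil genes at 6 h. The leukocyte, macrophage, fibroblast and endothelial sums had it there too, and the cardiomyocyte sum had the reverse. The mural, mesothelial and T cell sums had other orders. At 24 h the order by Has2 and Tnfaip6 was that of the leukocyte, macrophage, endothelial and T cell sums. Within the 72-h group the order by Has1 was not the neutrophil order. There the first mouse had the highest Has1 and the lowest neutrophil sum (49.6 against 59.0 and 60.1 FPKM). The part of neutrophils or of any other of these cell types in the result was not tested.

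Has2, the synthase that the embryonic heart needs for its cushions, followed another course. Its level was 1.17, 1.98 and 1.05 FPKM in control and 3.69, 1.61 and 3.20 FPKM at 6 h. It was 3.57, 5.40 and 12.3 FPKM at 24 h and 12.1, 17.5 and 16.5 FPKM at 72 h. The second 6-h mouse lay inside the control range, while all 24-h and 72-h mice lay above it. At 6 h its log2 fold change of 0.65 ± 0.242 (SE) did not pass the limma test (adjusted p = 0.0813), and those of 1.62 ± 0.376 at 24 h and 2.77 ± 0.172 at 72 h did (adjusted p = 0.0178 and 1.33e-06). The 6-h difference was called when the second 6-h mouse was left out (0.91, adjusted p = 0.0163), as was that between 1 h and 6 h (0.74, adjusted p = 0.0180). The 24-h call was lost without the first or the third control mouse (adjusted p = 0.0684 and 0.0637). From 24 h to 72 h Has2 rose by a further 1.15 (adjusted p = 0.0372), although the third 24-h mouse reached the 72-h range, and this call was lost without the first or second 24-h mouse (0.102 and 0.0992), without any one 72-h mouse (0.0551 to 0.117), without the filter on low values (0.0724) and under both scalings (0.0528 and 0.0514). Has1 thus had its highest mean at 6 h and Has2 at 72 h. The difference between the genes was not tested.

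Cd44, the main cell surface receptor of hyaluronan, was at 1.51, 1.22 and 1.60 FPKM in control. It was 16.8, 5.53 and 7.32 FPKM at 6 h, 10.4, 8.32 and 27.3 FPKM at 24 h and 14.9, 20.9 and 16.4 FPKM at 72 h. The 3 later groups overlapped one another and stood apart from control. The log2 fold change was 2.02 ± 0.335 (SE) at 6 h, 2.57 ± 0.386 at 24 h and 2.90 ± 0.127 at 72 h, with limma adjusted p of 0.00626, 0.00593 and 1.88e-07. Cd44 rose between 1 h and 6 h by 1.98 (adjusted p = 0.0106), and the later steps did not pass (adjusted p = 0.442 from 6 h to 24 h and 0.514 from 24 h to 72 h), although without the third 24-h mouse the last step was 0.82 and called (adjusted p = 0.00352). Leukocytes carry Cd44 as well as stromal cells. The sum of 4 leukocyte genes (Ptprc, Cd52, Coro1a and Laptm5) was 15.4 to 19.6 FPKM in control, 24.1 to 61.0 at 6 h, 94.8 to 208 at 24 h and 277 to 299 at 72 h, and its part in the result was not tested.

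Tnfaip6 encodes TSG-6, a secreted protein that binds hyaluronan and transfers the heavy chains of inter-alpha-inhibitor onto it. After the control and 1-h values given above it was 5.56, 2.18 and 3.10 FPKM at 6 h. At 24 h it was 1.58, 1.75 and 4.14 FPKM and at 72 h 3.97, 4.34 and 3.84 FPKM. No mouse of these groups fell into the control range, and the 72-h mice were the closest to one another. Tnfaip6 differed from control by a log2 fold change of 1.52 ± 0.248 (SE) at 6 h, 1.11 ± 0.264 at 24 h and 1.72 ± 0.102 at 72 h, with limma adjusted p of 0.00591, 0.0189 and 1.05e-06. The rise from 1 h to 6 h was 1.15 (adjusted p = 0.0207). Leaving out any one control mouse ended the 24-h call (adjusted p from 0.0582 to 0.0719), and leaving out any one 1-h mouse ended that between 1 h and 6 h (0.0540 to 0.0807). The groups of 6 h, 24 h and 72 h did not differ beyond their spread in consecutive steps (adjusted p = 0.403 and 0.0913), but the last step was called without the third 24-h mouse (0.92, adjusted p = 0.000398) and with a spread common to all 18 mice (0.61, adjusted p = 0.0438).

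Vcan, the proteoglycan whose head binds hyaluronan and whose core carries chondroitin sulphate chains, rose in steps of the mean. It was 4.16, 2.96 and 4.46 FPKM in control and 15.9, 5.37 and 9.41 FPKM at 6 h. It then stood at 14.7, 14.6 and 40.05 FPKM at 24 h and 30.4, 51.1 and 35.3 FPKM at 72 h. The 6-h mice lay above the control range, the second of them by little, and the third 24-h mouse lay within the 72-h range. The log2 fold change was 1.11 ± 0.327 (SE) at 6 h, 2.17 ± 0.374 at 24 h and 3.02 ± 0.190 at 72 h, with limma adjusted p of 0.0415, 0.00796 and 1.48e-06. The 6-h call was lost without any one control mouse (adjusted p from 0.0886 to 0.129), without the first or the third 6-h mouse (0.0621 and 0.0798) and without the filter on low values (0.0776). None of the single steps passed in its own fit of 6 mice (adjusted p = 0.0606, 0.142 and 0.114). With a spread common to all 18 mice, the steps from 1 h to 6 h and from 6 h to 24 h were called (adjusted p = 0.0463 and 0.0268). The step from 1 h to 6 h was called without the second 6-h mouse (1.36, adjusted p = 0.0125) and that from 24 h to 72 h without the third 24-h mouse (1.32, adjusted p = 0.00102).

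**Figure D2:**
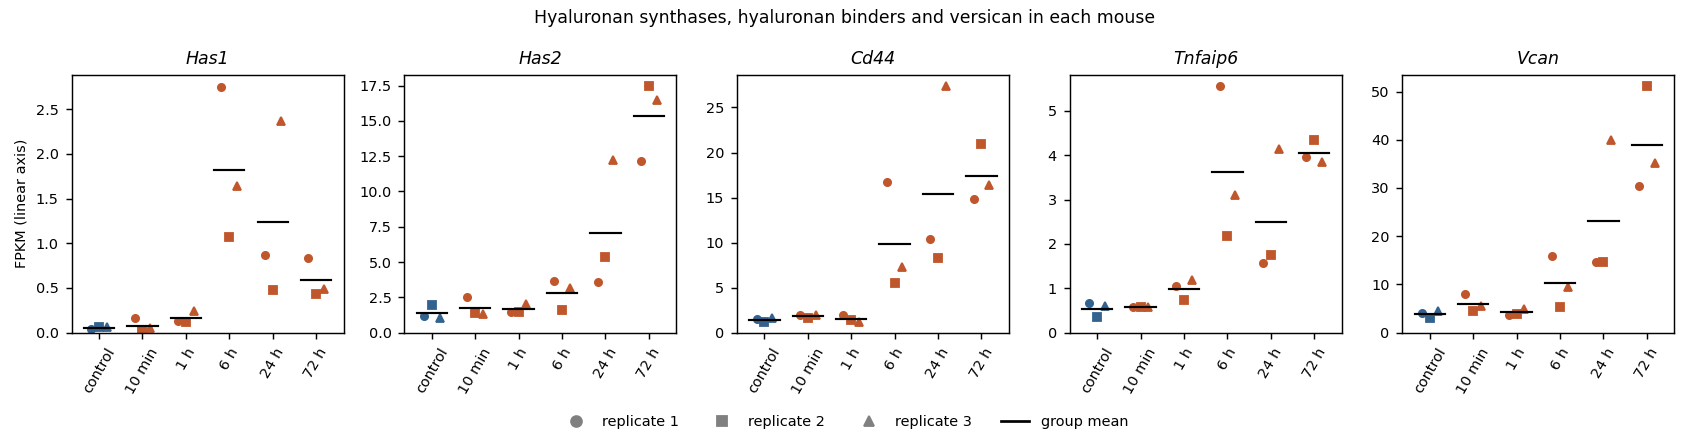
Each panel plots the FPKM of 1 gene on a linear axis from 0, with 1 point per mouse (marker shape gives the replicate number) and a bar at the mean of the 3 mice. Has1 has its highest mean at 6 h and Has2, Cd44, Tnfaip6 and Vcan at 72 h, and the third 24-h mouse (triangle) is the highest of its group in all 5 panels.

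Among the small leucine-rich proteoglycans, decorin was the most abundant in control. Dcn, which binds collagen fibrils and growth factors of the TGF-beta family, was 120.2, 128.0 and 126.4 FPKM in control and 119.8, 105.9 and 136.3 FPKM at 6 h. It was 88.9, 77.7 and 67.6 FPKM at 24 h and 215.9, 170.0 and 194.8 FPKM at 72 h. The 6-h mice surrounded the control mice, all 24-h mice were below every earlier mouse, and all 72-h mice were above. Relative to control, the log2 fold change of Dcn was -0.06 ± 0.0988 (SE) at 6 h, -0.68 ± 0.111 at 24 h and 0.62 ± 0.0918 at 72 h, with limma adjusted p of 0.688, 0.00692 and 0.000266. Under median-of-ratios scaling the 72-h value was 0.31 and still called (adjusted p = 0.0221). Dcn fell by 0.62 from 6 h to 24 h (adjusted p = 0.0360) and rose by 1.301 from 24 h to 72 h (adjusted p = 0.000435). The fall between 6 h and 24 h was not called without any one 6-h mouse (adjusted p from 0.0868 to 0.0945), without the second or the third 24-h mouse (0.109 and 0.0668), without the filter on low values (0.0551) or with the replicate block (0.0990).

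Bgn, the close relative of decorin that carries 2 glycosaminoglycan chains where decorin carries 1, rose earlier and further. Its level was 47.0, 38.0 and 53.0 FPKM in control and 40.6, 33.6 and 37.4 FPKM at 6 h. It was 66.2, 96.6 and 76.8 FPKM at 24 h and 369.7, 423 and 398 FPKM at 72 h. Each of the 2 later groups lay above all earlier mice. For Bgn this gave a log2 fold change of -0.29 ± 0.132 (SE) at 6 h, 0.78 ± 0.171 at 24 h and 3.09 ± 0.118 at 72 h, with limma adjusted p of 0.136, 0.0155 and 9.19e-08. The step from 6 h to 24 h was 1.07 (adjusted p = 0.0152) and that from 24 h to 72 h was 2.31 (adjusted p = 5.64e-05). The 24-h call against control was lost without the first or second control mouse (adjusted p = 0.0583 and 0.0585). The 24-h call against 6 h was lost without the second or the third 6-h mouse (0.0731 and 0.0533), without the second 24-h mouse (0.0565) and with the replicate block (0.0770).

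Lum and Ogn fell first and rose late. Lum, a keratan sulphate proteoglycan of collagen fibrils, was 32.0, 27.8 and 32.3 FPKM in control and 17.8, 11.6 and 20.0 FPKM at 6 h. It was 31.6, 40.9 and 23.2 FPKM at 24 h and 162, 150.4 and 199.5 FPKM at 72 h. All 6-h mice lay below all control mice, the 24-h mice surrounded them, and the 72-h mice lay above every other mouse. The log2 fold change was -0.89 ± 0.185 (SE) at 6 h, 0.02 ± 0.193 at 24 h and 2.43 ± 0.111 at 72 h, with limma adjusted p of 0.0137, 0.938 and 2.32e-07. From 1 h to 6 h Lum fell by 0.87 (adjusted p = 0.0186), and from 24 h to 72 h it rose by 2.41 (adjusted p = 0.000168). The step of 0.91 from 6 h to 24 h did not pass (adjusted p = 0.0515), and was called without the third 24-h mouse (1.11, adjusted p = 0.0396), with a spread common to all 18 mice (0.00131), with a filter on the mean FPKM (0.0466) and at the same summed FPKM (0.0495). The 6-h call against control was lost without the first or the third control mouse (adjusted p = 0.0553 and 0.0556), and that against 1 h without any one 1-h mouse (0.0540 to 0.0754).

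Ogn, a small proteoglycan known in the heart for its link to ventricular mass, was 21.1, 21.5 and 23.4 FPKM in control and 8.81, 9.31 and 13.3 FPKM at 6 h. It was 11.4, 10.5 and 4.83 FPKM at 24 h and 40.2, 32.0 and 43.2 FPKM at 72 h. Every mouse of 6 h and 24 h lay below every control mouse, and those of 72 h above. Relative to control, Ogn had a log2 fold change of -1.02 ± 0.149 (SE) at 6 h, -1.29 ± 0.275 at 24 h and 0.77 ± 0.109 at 72 h, with limma adjusted p of 0.00395, 0.0143 and 0.000201. Under median-of-ratios scaling the 72-h value was 0.47 and still called (adjusted p = 0.00474). Ogn fell by 0.98 from 1 h to 6 h (adjusted p = 0.00822), did not differ beyond its spread between 6 h and 24 h (adjusted p = 0.546) and rose by 2.06 from 24 h to 72 h (adjusted p = 0.00134). Its 24-h call was lost without any one control mouse (adjusted p from 0.0535 to 0.0552).

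Fmod, which binds collagen at a site shared with lumican, was the rarest of the 5. It was 0.342, 0.816 and 0.486 FPKM in control and 0.101, 0.0686 and 0 FPKM at 24 h, so it was listed at 0 in the third 24-h mouse. At 72 h it was 2.53, 2.66 and 2.58 FPKM. The 24-h mice lay below and the 72-h mice above all control mice. Fmod thus had a log2 fold change of -0.54 ± 0.132 (SE) at 24 h and 1.23 ± 0.118 at 72 h, with limma adjusted p of 0.0209 and 1.88e-05, and the rise from 24 h to 72 h was 1.77 (adjusted p = 4.05e-05). The 24-h call was lost without the second or the third control mouse (adjusted p = 0.0632 and 0.0612), and values under 1 FPKM rest on few reads.

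**Figure D3:**
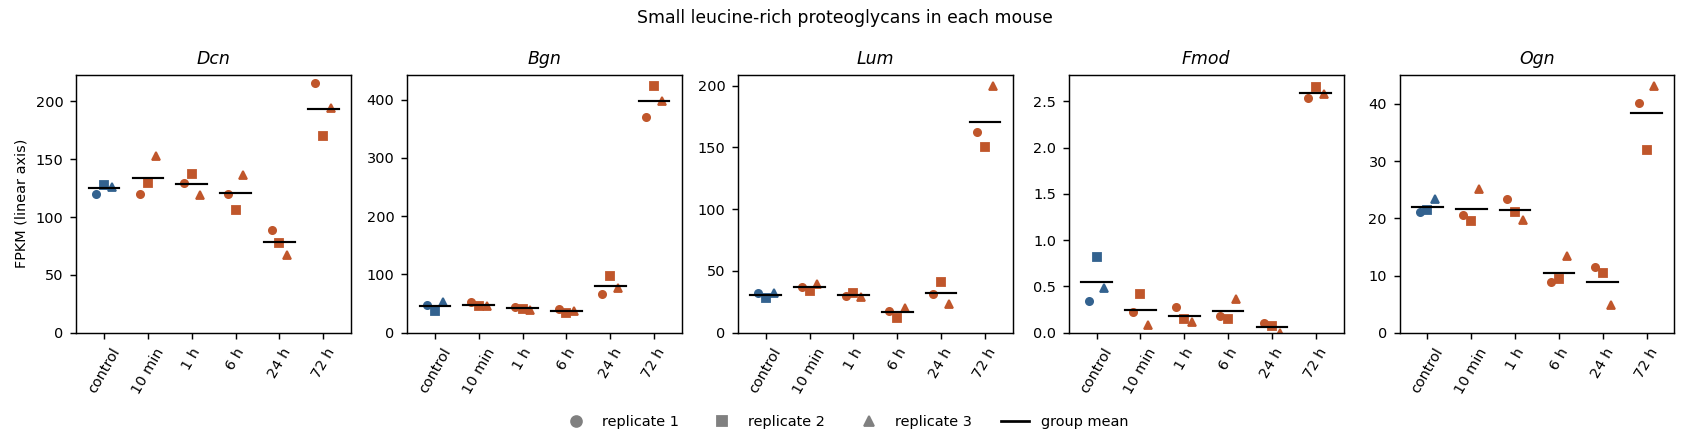
Each panel plots the FPKM of 1 small leucine-rich proteoglycan on a linear axis from 0, with 1 point per mouse (marker shape gives the replicate number) and a bar at the mean of the 3 mice. All 5 genes have their highest mean at 72 h, Dcn and Ogn have their lowest mean at 24 h, and Lum has its lowest at 6 h.

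Between consecutive times, the members called were 3 higher and 2 lower from 1 h to 6 h, against 9.32% of 13321 genes higher and 11.2% lower. From 6 h to 24 h 1 was higher and 1 lower, against 12.5% of 13328 genes higher and 1.94% lower. From 24 h to 72 h 6 were higher and 0 lower, against 29.7% of 13330 genes higher and 13.5% lower, and those 6 were Has2 and all 5 small proteoglycans. Without the third 24-h mouse the last count was 9, and the counts at 24 h against control stayed at 6 higher and 3 lower, as they did without either of the other 24-h mice, in contrast to leaving out a control mouse. Without the first 6-h mouse 3 members were called higher at 6 h and 2 lower, and without the second 5 higher and 2 lower. Fibroblast and macrophage markers moved with the late rise. The sum of 7 fibroblast genes was 213 to 345 FPKM at 24 h and 3469 to 4646 FPKM at 72 h, that of 6 macrophage genes was 580 to 758 and then 4020 to 5348 FPKM, and that of 6 mesothelial genes was 3.16 to 11.9 and then 24.1 to 76.1 FPKM. Of the macrophage genes 6 of 6 and of the mesothelial genes 4 of 6 were called higher at 72 h against control, beside 53.1% of 13329 genes. The highest mesothelial sum at 72 h was that of 1 mouse, with 24.1 and 28.1 FPKM in the others. The part of these markers in the members' rise was not tested.

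Among the 5 small proteoglycan members, the largest share turned from decorin to biglycan. Other small leucine-rich proteoglycans are not in these shares, among them Aspn at 10.99 FPKM in control and 80.0 FPKM at 72 h. Decorin was 55.8% ± 3.0 (SD, n = 3) of the summed FPKM of the 5 genes in control and 65.2% ± 1.05 at 6 h. It was 39.5% ± 5.22 at 24 h and 24.1% ± 2.84 at 72 h. Biglycan was 20.5% ± 2.56 in control, 20.2% ± 1.93 at 6 h, 40.2% ± 5.98 at 24 h and 49.5% ± 4.21 at 72 h. The control and 72-h mice did not overlap in either share. Lumican held 13.7% ± 0.816 in control, 8.79% ± 1.36 at 6 h and 21.2% ± 2.33 at 72 h, and osteoglycin 9.80% ± 0.223, 5.65% ± 0.874 and 4.79% ± 0.585. The sum itself was 224 ± 10.2 FPKM in control, 185 ± 23.5 at 6 h, 199 ± 26.7 at 24 h and 802 ± 31.4 at 72 h. These shares are a description within each mouse and were not tested. A single scaling factor per mouse leaves them as they are, and they were not computed after quantile normalization. Biglycan was the most abundant of the 5 genes in all 72-h mice, and decorin in all control and 6-h mice.

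**Figure D4:**
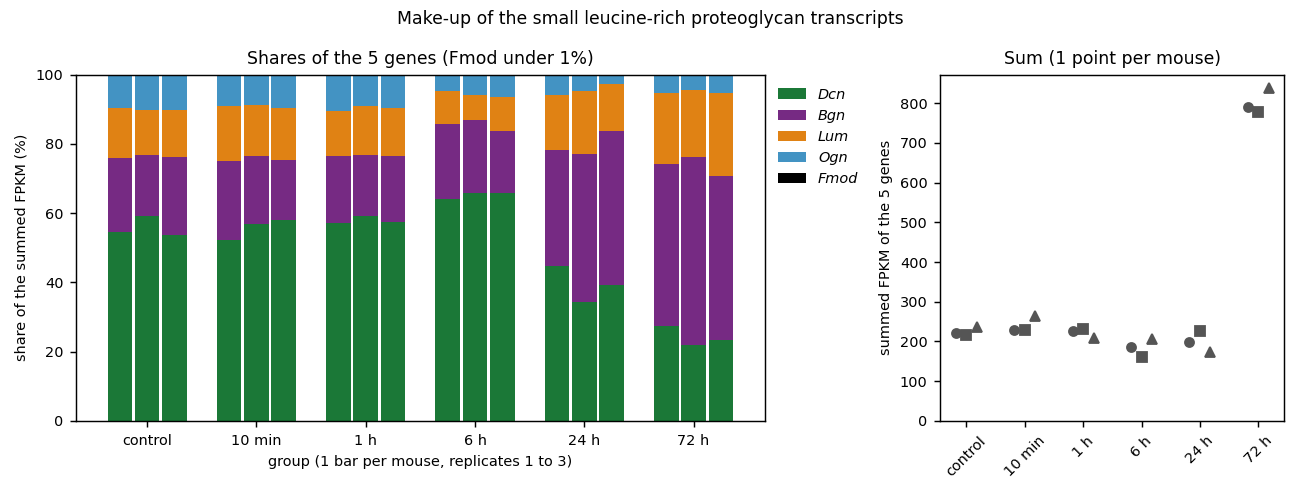
The left panel plots the percent of the summed FPKM of Dcn, Bgn, Lum, Ogn and Fmod taken by each gene, with 1 bar per mouse, and the right panel the sum itself with 1 point per mouse. Decorin takes 55.8% in control and 24.1% at 72 h on average, and the sum goes from 224 to 802 FPKM.

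Other genes that act on the same matrix are given by list, with the share called to be read against that of all genes tested, given above for each time. Of 30 listed names for hyaluronan synthesis, turnover and binding, 29 are symbols in the table (Cemip2 is listed under its older symbol Tmem2) and 17 passed the filter, leaving out the members. At 6 h 6 of the 17 were called higher and 3 lower, at 24 h 6 higher and 2 lower, and at 72 h 11 higher and 4 lower. At 72 h this was 64.7% higher and 23.5% lower, near the 53.1% and 24.2% of all genes, and at 6 h 35.3% higher and 17.6% lower, against 11.6% and 16.8%. Their median change was 0.04, 0.20 and 0.75 on the log2 scale, beside -0.08, 0.13 and 0.29 over all genes. By the rule for naming genes, the largest changes at 72 h were Hmmr, whose product binds hyaluronan and the mitotic spindle, Ptx3, a long pentraxin that crosslinks the hyaluronan matrix, and Stab1, a scavenger receptor. Hmmr was 0.0372 ± 0.0326 FPKM (SD) in control and 12.3 ± 1.03 at 72 h. Stab1 was 41.5 ± 4.85 and 286 ± 15.0 FPKM. Ptx3 had its highest mean at 6 h, at 44.1 ± 23.4 FPKM against 0.245 ± 0.128 in control (log2 fold change 5.07, limma adjusted p = 0.000269) and 8.99 ± 3.84 at 72 h. Ptx3 was the 1 gene of this list called at 1 h, at 1.16 ± 0.0903 FPKM. Of the genes at 0 in control, Hapln1, Ncan, Habp2 and Cemip, Cemip, whose product breaks hyaluronan down, was listed at 0 up to 1 h and stood at 2.74 ± 0.117 FPKM at 72 h.

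A few genes outside the naming rule were picked after their values were seen. Has3, the other hyaluronan synthase, went against Has1 and Has2: it was 3.13 ± 0.258 FPKM (SD) in control and 0.754 ± 0.214 at 6 h, a log2 fold change of -1.24 (limma adjusted p = 0.000902), and 0.871 ± 0.392 at 72 h (-1.16, adjusted p = 9.62e-05). Has3 was therefore the most abundant of the 3 synthases in control by mean FPKM, Has2 at 6 h, 24 h and 72 h. Ugdh, which makes the UDP-glucuronic acid that the synthases use, was 2.34 ± 0.253 FPKM in control, 7.09 ± 2.81 at 6 h and 12.5 ± 0.968 at 72 h and was called higher at 6 h, 24 h and 72 h (adjusted p = 0.0101, 0.0170 and 2.11e-07). Lyve1, a lymphatic and macrophage hyaluronan receptor, was 31.0 ± 3.69 FPKM in control, 48.7 ± 7.08 at 6 h (adjusted p = 0.0137) and 18.1 ± 6.68 at 72 h (adjusted p = 0.00852).

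Of the 12 other small leucine-rich proteoglycans, 5 passed the filter. Those called were 1 higher and 3 lower at 6 h, then 1 higher and 2 lower at 24 h, then 2 higher and 1 lower at 72 h (all genes: 11.6% and 16.8%, 26.2% and 11.4%, 53.1% and 24.2%), with a median log2 fold change of -0.80, -0.65 and 0.18. Aspn, whose product asporin binds collagen like decorin, was 10.99 ± 1.46 FPKM (SD) in control, 5.90 ± 0.831 at 6 h, 7.14 ± 3.36 at 24 h and 80.0 ± 6.31 at 72 h (log2 fold change -0.80, -0.65 and 2.76, limma adjusted p = 0.00639, 0.141 and 7.62e-08). Tsku, a secreted leucine-rich protein, rose at each of the 3 later times and reached 9.04 ± 0.705 FPKM from 1.10 ± 0.0873. Podn fell to 1.98 ± 0.288 FPKM at 72 h from 3.41 ± 0.128 (adjusted p = 0.000538). Prelp, the gene beside Fmod, and Ecm2, in the Ogn cluster, were named after their values were seen. Both were lower at 6 h (15.7 to 8.02 FPKM and 9.12 to 3.76 FPKM, adjusted p = 0.00346 and 0.000773) and at 24 h, and neither was called at 72 h (adjusted p = 0.205 and 0.0695). Epyc and Kera were listed at 0 in all control mice.

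The enzymes that build chondroitin and dermatan sulphate chains, which versican, decorin and biglycan carry, rose mostly late. Of 22 listed genes 21 passed the filter. The calls were 1 higher and 3 lower at 6 h, then 11 higher and 0 lower at 24 h, then 18 higher and 2 lower at 72 h, so that 4.76%, 52.4% and 85.7% were higher against 11.6%, 26.2% and 53.1% of all genes, with a median log2 fold change of 0.04, 0.36 and 1.12. Dse, the epimerase that turns chondroitin into dermatan sulphate, was 1.60 ± 0.219 FPKM (SD) in control, 4.09 ± 0.349 at 24 h and 15.4 ± 1.34 at 72 h (log2 fold change 2.66, limma adjusted p = 7.07e-08). The chain polymerising genes Chpf and Chpf2 went from 13.1 ± 1.27 to 53.8 ± 1.75 FPKM and from 5.50 ± 0.304 to 22.9 ± 2.42 FPKM between control and 72 h. Chst13 was at 0 in control. Of the 7 ADAMTS proteases that cut versican and other proteoglycans, all passed the filter, and 4 were higher at 6 h, 5 at 24 h and 7 at 72 h with 0 lower, against the same 11.6%, 26.2% and 53.1% of all genes, at a median log2 fold change of 1.51, 1.31 and 0.59. Adamts4 was the largest, at 0.161 ± 0.0881 FPKM in control, 47.9 ± 33.2 at 6 h, 35.5 ± 37.7 at 24 h and 25.8 ± 8.75 at 72 h (adjusted p = 0.000475, 0.00659 and 1.80e-07). It was also the gene called at 10 min, at 0.937 ± 0.209 FPKM (adjusted p = 0.0403). Adamts8 reached 6.44 ± 1.58 FPKM at 72 h from 0.875 ± 0.203, and Adamts15 was called higher by 0.70 (adjusted p = 0.000167).

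**Figure D5:**
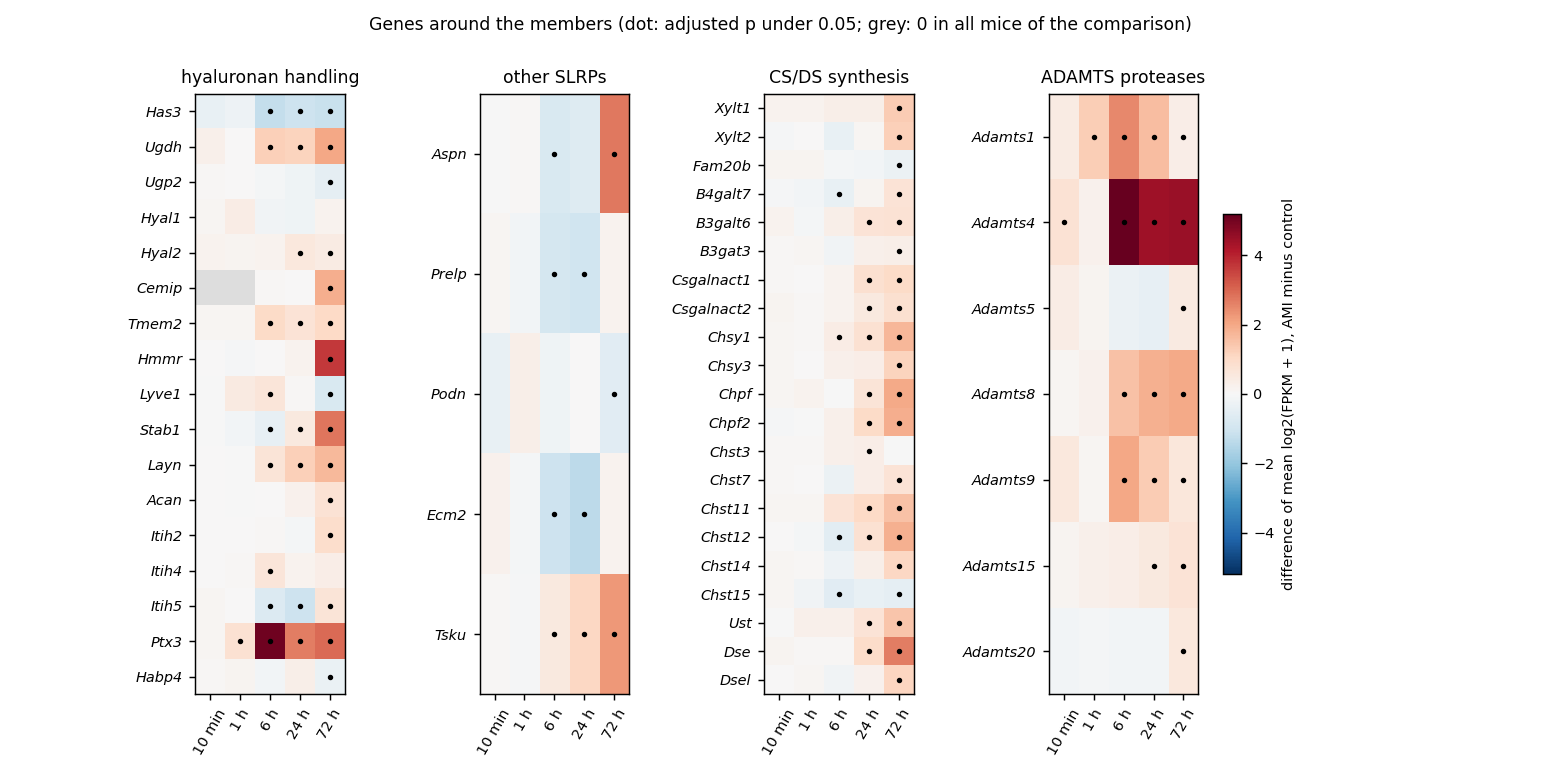
Heat maps of the difference of mean log2(FPKM + 1) against control at each time for the genes of 4 lists that passed the filter (members left out); red is higher, blue lower, dots mark an adjusted p under 0.05 and grey marks genes at 0 in all mice of the comparison. Ptx3 and Adamts4 are darkest at 6 h, Has3 is lower at 6 h, 24 h and 72 h, and of the chondroitin and dermatan sulphate genes 18 of 21 are higher at 72 h.

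By the Pearson correlation of log2(FPKM + 1) over the 18 mice, the 3 genes most like each member were as follows. These correlations describe how alike the time courses are, since the 18 mice fall into 6 times, and they carry no test. Has1 was most like Hdc (r = 0.977), the histamine-forming enzyme, Cxcr2 and Il18rap, of which Cxcr2 is in the neutrophil list. Has2 was most like Actr3, Tlr13 and D1Ertd622e (0.981 to 0.980), Cd44 like Ccr1 (0.991), Carhsp1 and Adam8, and Tnfaip6 like Pgm1 (0.986), Casp4 and Fam107b. Vcan was most like Tpm4 (0.986), Glipr2 and Atp1b3. Of the small proteoglycans, Bgn was most like Gusb (0.996), Fstl1 and Rcn1, Lum like Mxra8 (0.981), Antxr1 and Fkbp9, and Ogn like Islr (0.966), Tmem59 and Laptm4a. Dcn was most like Smpdl3a (0.955), Itm2b and Scn7a, and Fmod like Sptssa (0.953), Pamr1 and Bmf.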

How the data were processed

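RNA of 18 hearts in 6 groups of 3 was analysed. The authors made NEBNext Ultra libraries and, per the labels' processing notes, used cutadapt 1.18, HISAT2 2.1.0, StringTie 1.3.4d, Cufflinks and Cuffdiff with mm10. The annotation and strand setting are not given in the sources used here. The deposited values are FPKM per gene symbol, normalised by the authors for transcript length and library size, so values are relative and a few very abundant transcripts can shift all others.

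From these values log2(FPKM + 1) was computed (pseudocount 1), and limma 3.58.1 in R 4.3.3 (lmFit, then eBayes with trend) was run for each of 8 comparisons on its 6 mice, without covariates. A gene was kept if any of the 18 mice reached an FPKM of 1, those at 0 in all mice of a comparison were dropped from it, and p-values were adjusted by Benjamini-Hochberg over the rest. The design assumed FPKM, and no count test was possible. Groups came from the sample titles. The labels count 18 mice in 6 groups, so each library was taken as 1 mouse, and p-values measure the spread between these mice. Replicate numbers recur in every group but the labels tie them to nothing shared, and the samples were treated as unpaired.

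The members and gene lists were chosen with earlier results of these data known. All 10 members are named, and from each list the 3 genes with the largest absolute change at 72 h among those called there without overlap between the groups, besides genes at 0. For each member the 3 genes of highest Pearson r were named, leaving out predicted genes. As alternatives, the fits were repeated with 0.1 as the pseudocount, without the filter, with one on the mean FPKM, with 3 other scalings, with all 18 mice together, without the variance trend, with the replicate number as a block and with each mouse left out in turn. The method was tested on data simulated with the spread of the control mice, with changes only in genes well above 0 FPKM. That setting does not cover members near 0 FPKM or the wider spread of Cd44 and Vcan at 6 h and 24 h.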

Additional observations from a re-analysis of the deposited data

Results flagged for a closer look

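The values below are differences between the effects of AMI at consecutive times that passed the limma test of the difference itself (adjusted p under 0.05), each as the log2 fold change of the later over the earlier time, with 3 mice a time. From 1 h to 6 h, Has1 rose by 1.24, Cd44 by 1.98 and Tnfaip6 by 1.15 on the log2 scale, with all 3 later mice above all 3 earlier ones, and Lum (-0.87) and Ogn (-0.98) fell with all 3 later mice below. From 6 h to 24 h Dcn changed by -0.62 and Bgn by 1.07, in opposite directions and again without overlap. From 24 h to 72 h Has2 rose by 1.15 with overlapping groups, and Dcn by 1.301, Bgn by 2.31, Lum by 2.41, Fmod by 1.77 and Ogn by 2.06 without overlap. The adjusted p-values ran from 4.05e-05 for Fmod to 0.0372 for Has2.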

How the results depend on the processing

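Of 563 repeats of the 38 called member results under the alternatives, 514 kept their direction and call, 49 kept the direction and lost the call, and 0 reversed; all calls at 72 h against control were kept under every alternative that could give a value. Asking for a mean of 1 FPKM or more removed Has1 and Fmod. The counts most open to processing were those of 24 h against 6 h. There the 1 member called higher became 2 with the filter on the mean FPKM, 2 with every mouse scaled to the same summed FPKM, 4 with all 18 mice in one fit and 0 with the replicate block, and the 1 called lower became 0 without a filter and 0 with the replicate block. Leaving out 1 mouse at a time, the members called at 6 h against control ranged from 3 to 5 higher and from 1 to 2 lower. Those at 24 h against control ranged from 2 to 6 higher and from 1 to 3 lower. Those at 6 h against 1 h ranged from 2 to 5 higher and from 1 to 2 lower, and those at 24 h against 6 h from 0 to 2 higher and from 0 to 1 lower. The count higher at 72 h against 24 h moved as well, as given above. Each such fit has 5 mice in place of 6. Why the counts moved was not tested. Correlations of the deviations of same-numbered mice had no regular direction and ran from -0.327 to 0.415, both at 24 h against 6 h. With 3 mice a group they cannot show whether the replicate numbers mark something shared. The replicate block changed no member's call beyond those 2. Has1, Tnfaip6 and Fmod, at low FPKM, are limited by depth, and the deposited values give no counts from which an interval could be computed.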
